A study of Rattus norvegicus with 23 samples.

Results

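The 3 classical opioid receptors, mu (Oprm1, ENSRNOG00000018191), delta (Oprd1, ENSRNOG00000010531) and kappa (Oprk1, ENSRNOG00000007647), were followed as RNA in dorsal striatal tissue after methamphetamine (METH) self-administration under punishment. They are 3 of the 32552 genes counted in each of 23 libraries. Each was found by its identifier, and was used because the chromosome listed for it (1 for Oprm1, 5 for Oprd1 and Oprk1) was the one given for that receptor. All 3 passed the filter on low counts, which kept 16275 genes.

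Opioid receptors are G protein-coupled receptors of the inhibitory Gi/o class. When an opioid peptide binds, they lower adenylyl cyclase activity, open inwardly rectifying potassium channels and close voltage-gated calcium channels, so that the neuron that carries them fires less or releases less transmitter. The mu receptor binds beta-endorphin and enkephalins as well as morphine, and in the striatum it marks the patches called striosomes. The delta receptor binds enkephalins, and the kappa receptor binds dynorphins. Much of the striatal kappa receptor protein sits on the terminals of dopamine neurons, whose cell bodies and messenger RNA lie in the midbrain and are not part of a striatal dissection.

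All rats were adult male Long Evans animals with the wild type genotype, and each gave 1 library. The 6 CT rats (Ct, treatment Control) lever-pressed for saline and received no footshocks. The other 17 pressed for METH at 0.1 mg/kg per infusion through 22 days of training, were punished with footshocks of 0.18 to 0.36 mA for 8 days, passed 15 days of forced abstinence, took METH again for 12 days and met footshocks of 0.30 mA for 3 days. The 6 ASR rats (SR, METH Shock Resistant, always shock-resistant) kept pressing in both punishment phases. The 5 DSR rats (RSR, Resurgence METH Shock Resistant, delayed shock-resistant) cut their intake in the first phase and pressed on in the second, and the 6 AS rats (SS, METH Shock Sensitive, always sensitive) cut it in both. Tissue was taken the day after a drug-seeking test that followed a further withdrawal, so the levels describe that time and not the punishment sessions. The METH groups were defined by the rats' own behavior and were not assigned. The rat codes hold the number 7 (13 rats) or 8 (10 rats), whose meaning the labels do not give.

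Library totals ran from 18967015 to 28137676 counts (median 23069812), and mitochondrial genes took 11.65 to 19.58% of them. The count files name genes only by identifier, and no listed gene symbol could be paired with an identifier. The opioid peptides, the signaling partners of the receptors and the markers of striatal and neighboring cell types were therefore not analysed here, and the tissue label was not checked against markers. The libraries come from bulk tissue, in which fewer cells of a type and less RNA per cell cannot be told apart.

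The genes differ greatly in size. In the Rnor6.0 annotation of the files, the plus strand of chromosome 1 carries Oprm1 between bases 43454803 and 43704948, a span of 250146 bases with 5300 exonic bases in 14 blocks. The minus strand of chromosome 5 carries Oprd1 between bases 150288126 and 150323063, a span of 34938 bases with 1417 exonic bases in 3 blocks. Oprk1 occupies bases 13744658 to 13760305 of the same chromosome and strand, and its 15648 bases hold 2582 exonic bases in 4 blocks. Only exonic reads were counted.

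**Figure D1:**
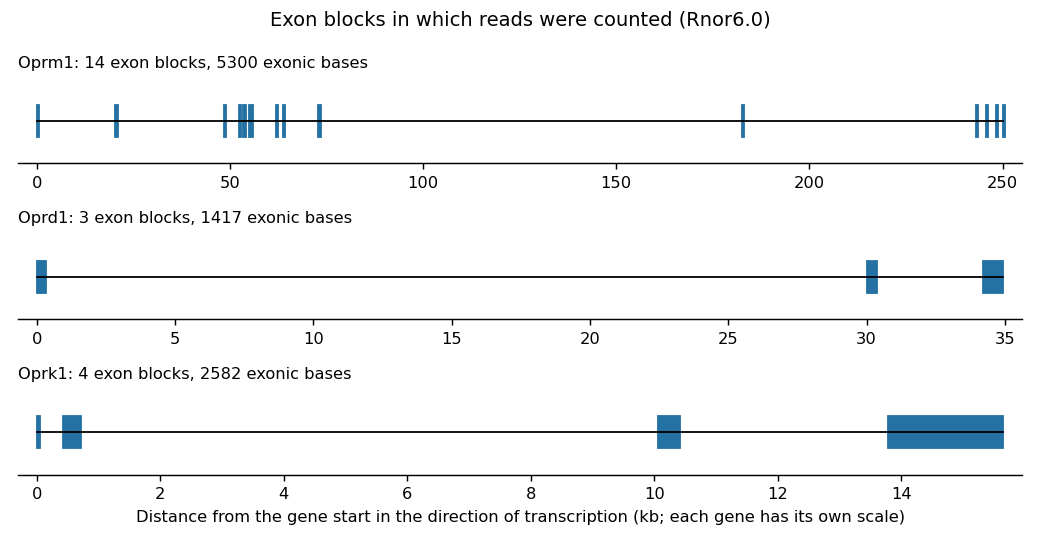
Exon blocks in which reads were counted, drawn as filled boxes along each gene from its start (horizontal axis, kb, a separate scale for each gene). Oprm1 spreads 14 blocks over 250146 bases, whereas Oprd1 has 3 and Oprk1 4 within far shorter spans.

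Oprm1 has an early block that starts 20180 bases before the next one in the files. The RefSeq promoter table for GRCr8 likewise holds 2 Oprm1 start sites, 20612 bases apart. The windows around the Oprm1 and Oprd1 starts are printed because the RNA levels of this pair moved together across rats. Each window spans 250 bases before to 50 bases after the start, is written 5′ to 3′ on the gene's strand, and comes from RefSeq with GRCr8 coordinates, which are not those of the count files. Capitals mark matches to the searched motifs.
Oprm1 window 1, chr1:45565121-45565420, plus strand: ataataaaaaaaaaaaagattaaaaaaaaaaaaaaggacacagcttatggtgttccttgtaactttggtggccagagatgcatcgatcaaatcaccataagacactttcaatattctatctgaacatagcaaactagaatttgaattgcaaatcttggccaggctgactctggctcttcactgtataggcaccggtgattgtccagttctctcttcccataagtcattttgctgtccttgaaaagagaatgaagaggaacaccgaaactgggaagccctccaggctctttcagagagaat
Oprm1 window 2, chr1:45585733-45586032, plus strand: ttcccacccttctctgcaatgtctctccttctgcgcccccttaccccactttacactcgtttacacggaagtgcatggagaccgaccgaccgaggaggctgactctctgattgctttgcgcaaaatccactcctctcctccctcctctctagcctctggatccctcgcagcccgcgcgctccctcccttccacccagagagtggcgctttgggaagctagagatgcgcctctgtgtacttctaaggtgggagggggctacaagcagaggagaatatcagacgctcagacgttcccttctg
Oprd1, chr5:149624950-149625249, minus strand: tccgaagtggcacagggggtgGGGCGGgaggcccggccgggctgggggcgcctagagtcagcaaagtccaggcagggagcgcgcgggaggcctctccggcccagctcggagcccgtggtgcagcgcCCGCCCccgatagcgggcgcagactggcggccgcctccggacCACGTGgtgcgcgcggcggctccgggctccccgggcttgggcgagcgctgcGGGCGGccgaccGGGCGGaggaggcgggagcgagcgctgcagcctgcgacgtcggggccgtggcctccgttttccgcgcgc

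These windows differ in base composition. G and C make up 39.0% of Oprm1 window 1 and 57.7% of window 2, which are the 10th and 67.8th percentile of the 33469 windows in the table. The Oprd1 window has 79.0% G and C, at the 98.8th percentile. The motifs searched on both strands were the CRE (TGACGTCA, in 1.83% of all windows), the AP-1 site (TGANTCA, 7.33%), the GC box (GGGCGG, 33.06%), the E-box (CACGTG, 6.42%) and the TATA box (TATAAA, 14.22%). The Oprd1 window held 4 GC boxes, 1 of them on the opposite strand, and 1 E-box, none overlapping another match. Neither Oprm1 window held a match to any of these motifs. These matches describe the letters only. No window was found for Oprk1.

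Oprm1, the mu receptor, was the rarest of the receptors in this tissue. It drew 511 counts over all 23 rats, from 8 to 58 in a library. In CPM (library counts rescaled to a common total with TMM factors), the CT rats ran from 0.462 to 1.97 with a median of 0.807. The ASR rats ran from 0.585 to 1.48 with a median of 1.09, the tightest of the groups relative to its level. The 5 DSR rats stood at 0.321, 0.635, 0.977, 1.04 and 2.27 CPM, so that this group held both the lowest and the highest Oprm1 level of the study. The AS rats ran from 0.389 to 1.05 with a median of 0.590.

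The AS mean of 0.668 ± 0.288 CPM (SD, n = 6) was the lowest of the groups, beside 1.08 ± 0.630 in CT (n = 6), 1.04 ± 0.297 in ASR (n = 6) and 1.05 ± 0.742 in DSR (n = 5). Of the 6 AS rats, 3 lay between 0.389 and 0.462 CPM, and the others lay inside the range of every other group. The CT mean was carried by a pair of rats at 1.77 and 1.97 CPM, with the other CT rats at or below 0.871. At this depth 1 Oprm1 read more or less is a visible step, since the AS libraries held 9 to 21 reads each.

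Oprd1, the delta receptor, was read 55 to 159 times in a library, 2159 in all. The CT rats ran from 2.96 to 6.21 CPM (median 4.15), the ASR rats from 2.14 to 5.21 (median 4.01) and the AS rats from 2.77 to 4.48 (median 3.46). The DSR rats stood at 3.29, 3.41, 4.16, 5.10 and 6.22 CPM. The means were 4.33 ± 1.32 in CT, 3.84 ± 1.07 in ASR, 4.44 ± 1.23 in DSR and 3.54 ± 0.608 CPM in AS rats (SD, n = 6, 6, 5 and 6). All groups overlapped, and the AS rats spanned the narrowest range.

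Oprk1, the kappa receptor, drew the most counts, 76 to 201 in a library and 3262 in all. The CT rats ran from 3.31 to 8.38 CPM (median 5.47), the ASR rats from 3.51 to 7.97 (median 5.31) and the AS rats from 4.99 to 7.69 (median 6.04). The DSR rats stood at 5.62, 6.23, 6.50, 7.46 and 7.87 CPM. The means were 5.63 ± 1.74 in CT, 5.76 ± 1.71 in ASR, 6.73 ± 0.916 in DSR and 6.23 ± 1.01 CPM in AS rats (SD, n = 6, 6, 5 and 6). The lowest DSR rat stood above the CT median, but every DSR value lay inside the CT range.

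**Figure D2:**
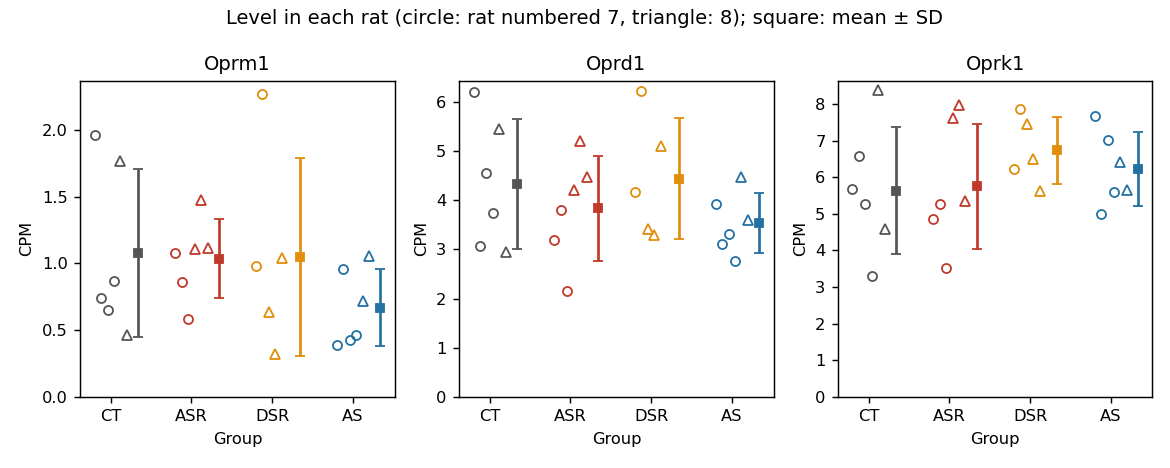
CPM (vertical axis, from 0) of Oprm1, Oprd1 and Oprk1 in each rat of the CT, ASR, DSR and AS groups, as circles for rats numbered 7 and triangles for rats numbered 8, with squares and bars for the group mean ± SD. Every pair of groups overlaps for each receptor, and the Oprm1 levels of DSR rats spread from 0.321 to 2.27 CPM.

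Compared per kilobase of exon, the scale on which genes can be set side by side, the order of the receptors changed. Over all rats Oprd1 averaged 2.84 ± 0.758 CPM per kb and Oprk1 2.35 ± 0.536, while Oprm1 averaged 0.180 ± 0.0961 (SD, n = 23). Among the 16275 genes these levels were the 28.8th, 25.9th and 1.9th percentile. Oprk1 exceeded Oprd1 in raw CPM in 21 of 23 rats, but per kb Oprd1 was the higher one in 17 of 23, so that these neighbors in the order did not separate rat by rat. Oprm1 was below both in every rat, with an Oprm1 to Oprd1 ratio per kb between 0.0261 and 0.0975. The exonic length of Oprm1 adds up blocks of many transcripts, which lowers a value per kb where a given transcript uses few of them. The order of Oprd1 and Oprk1 per kb likewise rests on their annotated exonic lengths, 1417 and 2582 bases, whose completeness was not checked.

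As a share of the 3 receptors' summed level per kb, Oprd1 took 56.1 ± 7.72% in CT, 52.7 ± 3.36% in ASR, 52.2 ± 6.36% in DSR and 49.5 ± 3.49% in AS rats (SD). Oprk1 took 40.3 ± 8.31%, 43.4 ± 3.42%, 44.7 ± 7.48% and 47.9 ± 4.32% in the same order. The mu receptor share was 3.54 ± 1.27% in CT, 3.82 ± 0.491% in ASR, 3.10 ± 1.57% in DSR and 2.58 ± 1.25% in AS rats. Oprd1 per kb exceeded Oprk1 in 5 of 6 CT and 6 of 6 ASR rats, but in 3 of 5 DSR and 3 of 6 AS rats.

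The first question of the design was whether METH rats differed from saline rats. The METH rats also met footshocks and the CT rats did not, so METH and footshock cannot be told apart in these comparisons. In ASR vs CT, none of the receptors passed edgeR's quasi-likelihood test at a Benjamini-Hochberg adjusted p under 0.05, a threshold that 0% of all genes passed (4.92% had an unadjusted p under 0.05). The log2 fold change was -0.06 for Oprm1 (SE 0.40), -0.18 for Oprd1 (SE 0.21) and 0.03 for Oprk1 (SE 0.20). In DSR vs CT, again none passed, against 0% of all genes (4.63% unadjusted). Oprk1 had the largest difference there, 0.26 on the log2 scale (SE 0.20, 95% interval -0.16 to 0.68, adjusted p = 0.982), with Oprm1 at -0.03 (SE 0.41) and Oprd1 at 0.04 (SE 0.22).

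Within this edgeR fit of 4 groups, the lowest unadjusted p of the 18 receptor tests came from AS vs CT. Oprm1 had a log2 fold change of -0.69 (SE 0.41, 95% interval -1.54 to 0.17), equal to 0.621 of the CT level, with an edgeR adjusted p of 0.334. Oprd1 was at -0.29 (SE 0.21) and Oprk1 at 0.15 (SE 0.20), with adjusted p of 0.434 and 0.687 in the same edgeR test. Among all genes 0% passed the adjusted threshold, while 21.4% had an unadjusted p under 0.05, which no receptor reached. The Oprm1 value was -0.46 without CT Grp7-L7 and -0.87 without AS Grp8-R10, the ends of its range with 1 rat left out. These 3 comparisons share the CT rats and are not independent of each other.

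The second question was whether rats that pressed on under punishment differed from those that did not. In ASR vs AS, Oprm1 had a log2 fold change of 0.63 (SE 0.41, 95% interval -0.22 to 1.48, edgeR adjusted p = 0.639), beside 0.11 (SE 0.21) for Oprd1 and -0.12 (SE 0.19) for Oprk1. Of all genes 0% passed here and 8.65% had an unadjusted p under 0.05. For DSR vs AS, where 0% passed and 25.3% were under the unadjusted threshold, Oprm1 was at 0.66 (SE 0.43, 95% interval -0.22 to 1.54, edgeR adjusted p = 0.333). Oprd1 was at 0.33 (SE 0.22, adjusted p = 0.362) and Oprk1 at 0.11 (SE 0.20, adjusted p = 0.759) by the same edgeR test. Without DSR Grp7-R7, the rat with the highest Oprm1 level, the Oprm1 value of DSR vs AS was 0.17 (edgeR adjusted p = 0.864), and without DSR Grp8-L9, the rat with the lowest, it was 0.89 (edgeR adjusted p = 0.136). Both comparisons use the AS rats that also entered AS vs CT.

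The resistant groups were then set against each other. The ASR vs DSR log2 fold changes were -0.03 for Oprm1 (SE 0.41), -0.21 for Oprd1 (SE 0.22) and -0.23 for Oprk1 (SE 0.20), with edgeR adjusted p of 0.992, 0.857 and 0.851. None passed, against 0% of all genes (4.29% unadjusted).

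**Figure D3:**
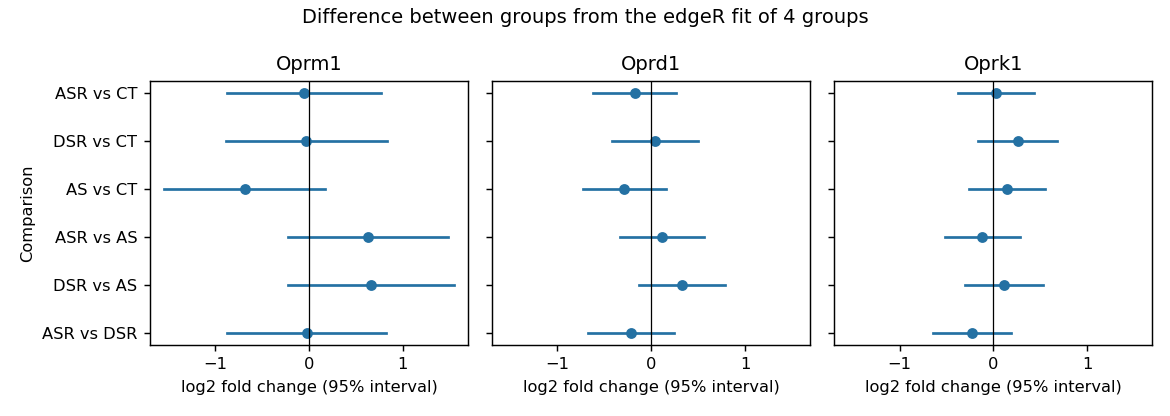
Log2 fold change (horizontal axis) of each receptor in the 6 comparisons, as points with 95% intervals from the edgeR fit of 4 groups. All 18 intervals cross 0, and the intervals of Oprm1 are the widest, as in AS vs CT (-1.54 to 0.17).

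Across the 18 tests, 0 had an adjusted p under 0.05 and 0 an unadjusted p under 0.05 by edgeR with the 4 groups in 1 fit. DESeq2 on all groups also gave 0 and 0, but it left Oprm1 in DSR vs AS without an adjusted p. On the compared groups alone, edgeR and DESeq2 each gave 0 adjusted calls and 1 unadjusted call, and it was the same test, Oprm1 in ASR vs AS. Its log2 fold change was 0.64 in both (adjusted p of 0.442 by edgeR and 0.464 by DESeq2), where 11.2% of all genes had an unadjusted p under 0.05 by edgeR and 8.39% by DESeq2. DESeq2 did call other genes. With all groups in the fit, 5.76% of genes passed the adjusted threshold for AS vs CT, 5.17% for DSR vs AS and 0% for the remaining 4 comparisons. On the compared groups alone, 11.7% passed for DSR vs AS, 5.68% for AS vs CT, 0.106% for ASR vs AS, 0.0854% for ASR vs CT, 0.00408% for DSR vs CT and 0% for ASR vs DSR. Unadjusted, the DESeq2 shares on all groups were 17.4% for DSR vs AS, 14.9% for AS vs CT, 6.59% for ASR vs AS, 3.91% for ASR vs CT, 3.57% for DSR vs CT and 3.47% for ASR vs DSR. On the compared groups alone they were 18.4% for DSR vs AS, 15% for AS vs CT, 4.31% for ASR vs CT, 3.88% for ASR vs DSR and 2.77% for DSR vs CT.

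The median log2 fold change of all genes stayed between -0.01 and 0.02 in every comparison. An F test over the 4 groups gave edgeR adjusted p of 0.606 for Oprm1, 0.672 for Oprd1 and 0.767 for Oprk1, where 0% of genes passed and 15.6% had an unadjusted p under 0.05. A miss of the threshold does not show equal levels. The 95% interval of the AS to CT fold ran from 0.343 to 1.12 for Oprm1, from 0.602 to 1.11 for Oprd1 and from 0.836 to 1.46 for Oprk1.

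In all 18 pairings the CPM ranges of the groups overlapped. Ranges kept apart in 0.356% of all genes for ASR vs CT, 0.387% for DSR vs CT and 0.823% for AS vs CT. Against AS rats the share was 0.356% with ASR and 2.48% with DSR rats, and between the resistant groups it was 0.313%. Exact two-sided permutation of log2 CPM between rats, which can go as low as p = 0.00217 here, gave their lowest value for Oprm1 in ASR vs AS. There the difference in mean log2 CPM was 0.62 (exact permutation p = 0.0584, adjusted over 18 tests 0.747).

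The comparisons were repeated within each number of the rat codes, with no test of the difference between numbers. Among rats numbered 7, DSR vs AS gave an Oprm1 log2 fold change of 1.53 (SE 0.51, edgeR adjusted p = 0.0974) from 2 DSR and 4 AS rats. Among rats numbered 8 it gave -0.39 (SE 0.60), from 3 DSR and 2 AS rats. Within rats numbered 7, 4 of the 18 tests had an unadjusted p under 0.05 by edgeR and 0 an adjusted one. They were Oprm1 and Oprd1 in DSR vs AS, where 25.4% of all genes were under that threshold, and Oprd1 and Oprk1 in ASR vs DSR, where 16.4% were. Within rats numbered 8 there were 0. The 4 tests among rats numbered 7 share the same 2 DSR rats, with 3 ASR rats in ASR vs DSR, and are not independent. DSR Grp7-R7, the highest rat of all in Oprm1 and Oprd1, is 1 of these 2. The pooled Oprm1 value of DSR vs AS joined estimates of opposite sign, and the value among rats numbered 8 was smaller in size than its SE. AS vs CT stood below 0 among rats numbered 7 (-0.91, SE 0.45) and 8 (-0.36, SE 0.64). ASR vs AS stood above 0 among rats numbered 7 (0.59, SE 0.48) and 8 (0.49, SE 0.59). Both comparisons use the same AS rats, of which only 2 are numbered 8, so their directions are not independent. Over all groups the levels of the 13 rats numbered 7 and the 10 rats numbered 8 did not differ past the threshold for any receptor, with Oprk1 the furthest apart at 5.68 ± 1.40 against 6.55 ± 1.26 CPM (SD, permutation p = 0.132, adjusted over 3 receptors 0.395).

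Because 1 rat supplies all 3 receptors, their ratio within a rat needs no scaling between libraries. The log2 ratio of Oprm1 to Oprk1 averaged -2.37 ± 0.22 in ASR rats and -3.14 ± 0.73 in AS rats (SD, n = 6 each), with -2.41 ± 0.67 in CT and -2.81 ± 0.89 in DSR rats. The ASR vs AS difference of 0.76 had the lowest p of 18 such tests (exact permutation p = 0.0390, adjusted 0.358), and it did not pass after adjustment. Oprm1 to Oprd1 in the same comparison differed by 0.54 (exact permutation p = 0.0584, adjusted 0.358). The Oprd1 to Oprk1 ratio was lowest in AS rats at -0.80 ± 0.23 and highest in CT rats at -0.37 ± 0.49, a difference of -0.43 (exact permutation p = 0.0996, adjusted 0.358).

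Rat to rat, the mu and delta receptors moved together. Over 23 rats the log2 CPM of Oprm1 and Oprd1 had a Pearson r of 0.72 (permutation p = 1e-04, adjusted over 3 pairs 0.0003) and a Spearman rho of 0.67 (permutation p = 0.00064). The rats highest in one, CT Grp7-L7 (1.97 CPM Oprm1, 6.21 CPM Oprd1) and DSR Grp7-R7 (2.27 and 6.22 CPM), were highest in the other. Without the 2 rats farthest from the Oprm1 median r was 0.68, and in deviations from group means it was 0.74. Within the rats numbered 7 r was 0.68 (permutation adjusted p = 0.0324, but rho 0.46 with p = 0.120), and within those numbered 8 it was 0.84 (permutation adjusted p = 0.00765, n = 10).

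Few genes rose with Oprm1 as closely. Of 16274 other genes, 0.657% had an r with Oprm1 as high as Oprd1 had, and 0.467% had an r with Oprd1 as high as Oprm1 had. These shares leave out genes that fall as a receptor rises. With Oprm1, 557 genes had an r below -0.7 and 165 above 0.7, and with Oprd1 152 and 122. Both values of a rat come from 1 library, and so share its depth and dissection.

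The other pairs were looser. Oprd1 and Oprk1 had an r of 0.50 (permutation p = 0.0159, adjusted 0.0238, rho 0.49), and 0.55 in deviations from group means (permutation adjusted p = 0.0106). The relation rested on the 2 rats farthest from the Oprd1 median (ASR Grp7-R4 at 2.14 CPM and DSR Grp7-R7 at 6.22 CPM), without which r was 0.28 (permutation adjusted p = 0.339). It also missed the threshold within rats numbered 7 (0.46, permutation adjusted p = 0.173) and numbered 8 (0.48, permutation adjusted p = 0.202, n = 10). Oprm1 and Oprk1 had an r of 0.20 (permutation p = 0.371, rho 0.21), and missed the threshold within either number.

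**Figure D4:**
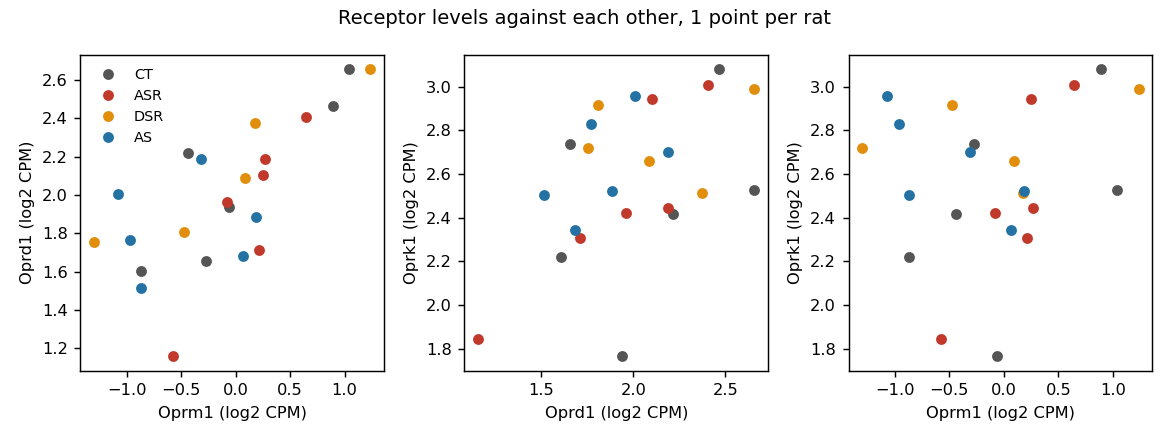
Log2 CPM of the receptors against each other, 1 point per rat, colored by group (CT, ASR, DSR, AS). Oprm1 and Oprd1 rise together (r = 0.72), Oprd1 and Oprk1 less so (r = 0.50), and Oprm1 and Oprk1 form a loose cloud (r = 0.20).

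The axis along which all other genes varied most was compared with the receptors, a step chosen after the data were seen. The first principal component of 16272 other genes, drawn so that Oprm1 is high where it is high, carried 29.55% of their variance. Oprm1 had an r of 0.72 with it (permutation p = 9e-05, adjusted over 6 tests 0.00054), Oprd1 0.64 (permutation p = 0.00072, adjusted 0.00216) and Oprk1 0.32 (permutation p = 0.133, adjusted 0.200). Without the 2 rats farthest along the axis these were 0.58, 0.51 and 0.10. Within rats numbered 7 and 8, Oprm1 had 0.78 and 0.61, and Oprd1 0.66 and 0.62. Many genes follow this component, and 8.58% of the other genes had an r as high as Oprm1 and 12% one as high as Oprd1. These shares leave out genes that fall along it, and its direction was set by Oprm1. By the size of r in either direction, Oprm1 stood at percentile 80 and Oprd1 at percentile 72.9 of all genes tested.

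AS rats had the lowest median on the component (-26.0, range -38.0 to 0.348), followed by ASR rats (-3.25, range -21.7 to 23.9). The median was 14.5 in DSR (range -20.6 to 49.7) and 15.0 in CT rats (range -25.2 to 45.6). All ranges overlapped, and by mean DSR rats (16.4) stood above CT rats (12.0). Exact permutation tests gave p = 0.0173 for AS vs CT, 0.0108 for DSR vs AS and 0.0281 for ASR vs AS, none of which passed over 6 comparisons (adjusted 0.0520, 0.0520 and 0.0563). With the component as a covariate, the Oprm1 log2 fold change turned from -0.69 to 0.47 (SE 0.36) in AS vs CT. It turned from 0.66 to -0.70 (SE 0.39) in DSR vs AS and from 0.63 to -0.036 (SE 0.31) in ASR vs AS. Most AS rats lay low on the component and Oprm1 followed it, so this fit cannot tell group and component apart. With the component as a covariate, 0 of the 18 tests passed the adjusted threshold and 2 had an unadjusted p under 0.05 by edgeR. These were Oprk1 in AS vs CT (log2 fold change 0.45), where 6.53% of all genes were under that threshold, and Oprm1 in ASR vs DSR (0.66), where 2.67% were. With the component removed, Oprm1 and Oprd1 had an r of 0.48 (permutation p = 0.0190, adjusted over 3 pairs 0.0569). Their Spearman rho was then 0.55 (permutation p = 0.00702, adjusted 0.0211), which passed where r did not. Neither the library total nor the mitochondrial share passed a correlation test with any receptor (6 tests, permutation adjusted p from 0.793 to 0.814).

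**Figure D5:**
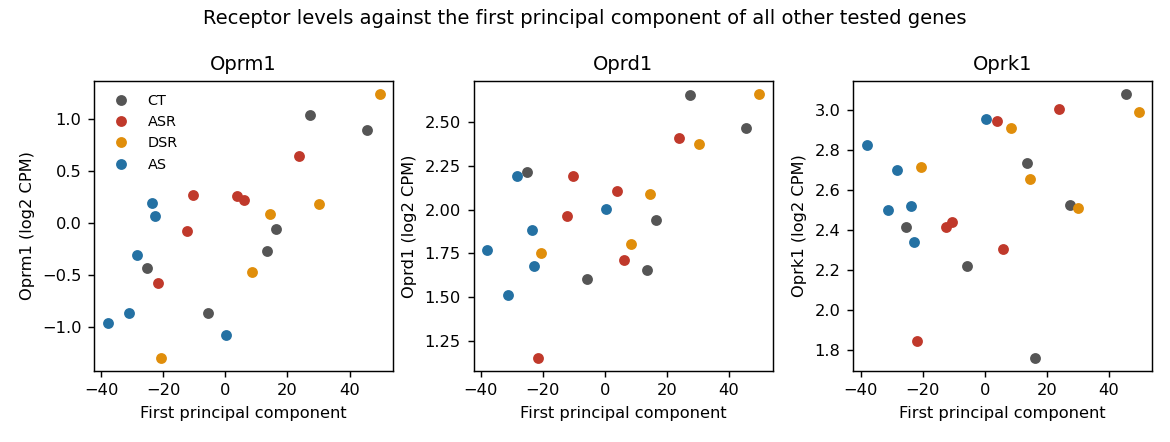
Log2 CPM of each receptor (vertical axis) against the first principal component of the other tested genes (horizontal axis, arbitrary units), 1 point per rat, colored by group. Oprm1 (r = 0.72) and Oprd1 (r = 0.64) climb along it more tightly than Oprk1 (r = 0.32). Most AS rats sit toward its low end, with 1 of them at 0.348, and a CT rat at -25.2 lies among them.

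The receptors differed in how much they spread within groups. The within-group SD on the log2 scale was 0.68 for Oprm1, 0.38 for Oprd1 and 0.35 for Oprk1, at percentiles 84.3, 74.9 and 78.9 of the 1000 genes nearest to each in level. The variance of the counts within groups was 6.06, 6.53 and 7.97 times what counting alone would give. The CV of Oprm1 was 70.65% in DSR and 58.48% in CT rats but 28.67% in ASR rats. Oprk1 varied least in DSR (13.6%) and AS rats (16.14%), against 30.86% in CT and 29.68% in ASR rats. These spreads are given as a description, since differences in spread were not tested.

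By the rule for naming genes, 1 identifier was taken for each receptor as its closest follower across the 23 rats. For Oprm1 it was ENSRNOG00000001453 (Rnor6.0 chromosome 12, 24478898 to 24537313, minus strand, r = 0.88, mean 195 CPM), which also led in deviations from group means (r = 0.89) and ranked 2 by Spearman rho. For Oprd1 it was ENSRNOG00000006962 (chromosome 1, 211440335 to 211520699, minus strand, r = 0.80, mean 224 CPM), ranked 20 by rho. For Oprk1 it was ENSRNOG00000005359 (chromosome 3, 51883559 to 52120290, plus strand, r = 0.78, mean 8.18 CPM), ranked 42 by rho. In all, 165 genes had an r above 0.7 with Oprm1 and 557 below -0.7, whereas Oprd1 had 122 and 152 and Oprk1 26 and 5.

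Oprm1 alone shares exonic bases with another gene. ENSRNOG00000018163, on the minus strand from 43567842 to 43638161, lies inside its span and shares 68 exonic bases with it, and the setting of the counting for strand was not given in the sources used here. Reads from those bases cannot be assigned to one of the genes without strand. Its level ran from 3.48 to 10.8 CPM in CT rats and stood at 8.12 CPM in 1 AS rat and between 1.26 and 1.80 in the others. Its log2 fold change was -1.42 in AS vs CT (SE 0.44, edgeR adjusted p = 0.0911) and 1.18 in DSR vs AS (SE 0.46, edgeR adjusted p = 0.134). Oprm1 had the same direction in both comparisons (-0.69 and 0.66). Single rats differed in how the genes went together. The AS rat at 8.12 CPM was the one with the lowest AS level of Oprm1, 0.389 CPM. DSR Grp7-R7 was the highest of all rats in both genes, with 2.27 CPM of Oprm1. CT Grp8-L11, the CT rat at 10.8 CPM, had 1.77 CPM of Oprm1. The part of these shared bases in the Oprm1 counts was not tested. Oprd1 and Oprk1 overlap no other gene in the files.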

How the data were processed

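Striatal RNA of 6 CT, 6 ASR, 5 DSR and 6 AS rats was poly(A)-selected and sequenced in paired ends. Per the labels and the study's methods, the authors used bcl2fastq 2.17, Trimmomatic 0.36, STAR 2.5.2b on the Rnor6.0 genome, and featureCounts of Subread 1.5.2 over exons of Ensembl genes. What the authors deposited are raw counts for each gene in each library. Reads carry no molecular identifiers. Groups came from the treatment labels, and 1 library per rat was 1 replicate.

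Computed here, in R 4.3.3 with edgeR 4.0.16, were TMM factors (0.93 to 1.051), CPM, and a quasi-likelihood fit of the 4 groups over 16275 genes kept by filterByExpr (minimum count 10, minimum total 15). The Benjamini-Hochberg adjustment ran over all genes of a comparison. Log2 CPM used a prior count of 2. Permutation tests were two-sided and exact for groups, with 100000 resamples for correlations and for the 13 against 10 rats of each number, in SciPy 1.17.1. The fit was also run on simulated counts with known changes, in which each gene varied independently. That run checks the code and does not show how the fit does where genes vary together.

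The named genes were the receptors and, since no symbol could be paired with an identifier (0 rows of the reference table carry one), the 1 identifier with the highest correlation with each receptor. Lists of 40 pathway and 66 marker genes were not analysed here for that reason. The receptors and lists were chosen with earlier results of these data known. Alternatives were DESeq2 1.42.0, edgeR on 2 groups, RLE factors, no filter, covariates, each rat number alone, a prior count of 0.5 and each rat left out. The principal component was added after the data were seen.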

Additional observations from a re-analysis of the deposited data

How the results depend on the processing

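No paired analysis was possible because no rat code is shared between groups. No log2 fold change of a receptor passed the adjusted threshold under any alternative run (adjusted p 0.0974 to 1, with 1 test left without an adjusted p by DESeq2), so the fold changes below are directions, and the cause of each change was not tested. Oprm1 rests on 8 to 58 reads a library, and its variance within groups was 6.06 times that of counting alone.

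Directions of the log2 fold changes turned in 25 of 180 tests. Among rats numbered 8, Oprm1 was at 0.14 for ASR vs CT, -0.39 for DSR vs AS and 0.88 for ASR vs DSR. Oprd1 was at 0.14 for ASR vs CT, -0.094 for DSR vs CT, -0.030 for DSR vs AS and 0.24 for ASR vs DSR. Oprk1 was at -0.11 for AS vs CT, 0.22 for ASR vs AS and 0.096 for ASR vs DSR. Among rats numbered 7, Oprk1 was at -0.19 for ASR vs CT, Oprm1 at 0.63 for DSR vs CT and Oprd1 at -0.11 for ASR vs AS. With the rat number as a covariate, Oprk1 was at -0.015 for ASR vs CT.

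With the first principal component as a covariate, added after the data were seen, Oprm1 was at 0.43 for ASR vs CT, 0.47 for AS vs CT, -0.036 for ASR vs AS, -0.70 for DSR vs AS and 0.66 for ASR vs DSR. Oprd1 was at -0.035 for DSR vs CT, 0.12 for AS vs CT, -0.15 for ASR vs AS, -0.15 for DSR vs AS and 0.0077 for ASR vs DSR, and Oprk1 at -0.21 for DSR vs AS.

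Leaving out each rat turned 19 of 207 log2 fold changes. The range was -0.22 to 0.19 for Oprm1 and -0.085 to 0.18 for Oprk1 in ASR vs CT, -0.53 to 0.22 for Oprm1 and -0.12 to 0.16 for Oprd1 in DSR vs CT, and -0.25 to 0.47 for Oprm1 in ASR vs DSR. For Oprm1 they spanned -0.87 to -0.46 (lowest size without CT Grp7-L7) for AS vs CT and 0.17 (without DSR Grp7-R7) to 0.89 for DSR vs AS. Without CT Grp8-R11, Oprm1 in AS vs CT was at -0.86 (edgeR adjusted p = 0.215), and without DSR Grp8-L9 it was at 0.89 in DSR vs AS (edgeR adjusted p = 0.136). Log2 ratios turned in 11 of 207 cases, with ranges of -0.34 to 0.068 for Oprm1/Oprd1 in DSR vs CT, -0.046 to 0.36 for Oprm1/Oprd1 in DSR vs AS, -0.099 to 0.22 for Oprm1/Oprk1 in ASR vs CT and -0.071 to 0.17 for Oprd1/Oprk1 in ASR vs DSR.

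The Pearson r of Oprm1 and Oprd1 kept its call in deviations from group means and without the 2 rats farthest from the median. It also did so within each rat number, with r from 0.68 to 0.84 over these settings. Among rats numbered 7 their Spearman rho of 0.46 did not pass (permutation adjusted p = 0.212). The Pearson r of Oprd1 and Oprk1 kept its call in deviations from group means (0.55). It lost its call among rats numbered 7 (0.46) and 8 (0.48), without the 2 farthest rats (0.28) and with the component removed (0.40). With the component removed, the Pearson r of Oprm1 and Oprd1 fell short at 0.48, while their Spearman rho of 0.55 passed (permutation adjusted p = 0.0211). The r of Oprm1 and Oprk1 turned to -0.052.

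Counts of all genes at an adjusted p under 0.05 were 0 by edgeR in each comparison. DESeq2 on all groups gave 883 for AS vs CT and 716 for DSR vs AS. On the compared groups alone it gave 15 for ASR vs CT, 1 for DSR vs CT, 913 for AS vs CT, 21 for ASR vs AS and 1766 for DSR vs AS.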
